A study of Sus scrofa with 64 samples.

Results

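The hypothalamus was measured on 4 arrays, 1 from each of 4 pigs, and was compared with 60 arrays of 15 other tissues from the same animals. The arrays were chosen by their sample titles. The other tissues were olfactory bulb, pineal gland, neurohypophysis, adenohypophysis, adrenal medulla, adrenal cortex, thyroid gland, abdominal fat, back fat, stomach, ileum, diaphragm, biceps femoris, liver and blood. The study asked how gene expression is organised across tissues of 2 pig breeds and both sexes. The animals were a Large White male of 38.80 kg and a Large White female of 36.20 kg, both 87 days old, and an Iberian male of 25.4 kg and an Iberian female of 32.8 kg, both 89 days old. The methods state that the pigs were housed at the same time on the same diets, and name no treatment. Each combination of breed and sex rested on 1 animal. By the methods, the sampled block held the tuberal and mamillary parts, and the optic chiasm was not in it. Total RNA was hybridised to the Affymetrix porcine array, on which a gene is read by 1 or more probe sets. Levels are log2 units after robust multi-array averaging (RMA), so that a difference of 1 is a doubling. Of 23935 probe sets tested, 9815 carried 1 gene symbol, for 6592 genes. Genes are described here by the probe set that was brightest in hypothalamus. That choice favours higher levels there, and other probe sets of a gene can differ.

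The hypothalamus lies at the base of the forebrain and joins the nervous system to the endocrine system. Its neurons are grouped in nuclei that regulate feeding, drinking, body temperature, sleep, stress and reproduction, and many of these neurons signal with peptides cut from larger precursors. The magnocellular neurons make vasopressin and oxytocin in their cell bodies and send them down their axons to the neurohypophysis. Other neurons release factors into portal vessels that govern the adenohypophysis. Neurons of the lateral hypothalamus make melanin-concentrating hormone and hypocretin, and histamine neurons lie next to the mamillary bodies.

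The defining markers of the hypothalamus were present on all 4 arrays. PMCH, the precursor of melanin-concentrating hormone, had 10.72 log2 units on the Large White male array, 10.43 on the Large White female, 12.82 on the Iberian male and 10.21 on the Iberian female. The 60 arrays of other tissues lay between 3.01 and 4.96. Every hypothalamus array was therefore far above every other array, and the difference of 7.51 ± 0.19 log2 units (SE) between the hypothalamus and the mean of the other 15 tissues, or 182-fold, had an adjusted p of 3.5e-36 (limma, adjusted over all probe sets). HCRT, the hypocretin precursor, had 8.06, 8.20, 9.90 and 8.14 log2 units in the same order of animals, against a range of 6.02 to 8.19 in other tissues. The upper end of that range came from blood, which averaged 8.05 ± 0.16 (SD, n = 4), and 2 hypothalamus arrays lay within the blood arrays. HCRT was still higher in hypothalamus than in each other tissue, by 1.93 ± 0.14 on average (adjusted p = 3.4e-17). Its difference from blood was 0.52 (adjusted p = 0.013), and without the Iberian male array it was 0.09 (adjusted p = 0.55). CALCR, the calcitonin receptor, stood at 11.60, 11.97, 11.91 and 11.80, against at most 11.11 elsewhere, on a pineal gland array. PDYN, the dynorphin precursor, stood at 7.27, 8.61, 8.82 and 7.74, against at most 6.95. All 4 markers passed the test against each of the 15 tissues, and HCRT did so only with the Iberian male array included.

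Over all named probe sets, 2078 (21.2%) were higher and 3851 (39.2%) lower in hypothalamus than in the mean of the other 15 tissues at an adjusted p under 0.05, and the median difference was -0.17. Counts within gene groups are set against these shares. Higher than in each of the other tissues, with all 15 pairwise tests passed, were 91 probe sets (0.927%) of 84 genes. Lower than in each of the others were only 2 (0.0204%), those of CTDSPL and TYMS, which were named after the count was known. The lower calls include weak probe sets: of the 2194 named probe sets at or under 6 on average in every tissue, 731 were called lower and 177 higher. Over the 8286 such probe sets of the whole array the median was 3.48 in hypothalamus and 4.19 in blood, and blood had the highest mean for 55.2% of them. Without blood, 2018 named probe sets were higher and 3642 lower, and 3446 were lower both with and without it.

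Each hypothalamus array was closest to another hypothalamus array. Measured as 1 minus the squared correlation over all probe sets, the mean profile of hypothalamus was nearest to olfactory bulb (0.0469), then to pineal gland (0.0838), neurohypophysis (0.1447) and adenohypophysis (0.1648), and farthest from blood (0.4866). The Large White male's pineal array stood apart from the other 3. It was higher in some neural and glial genes, such as CALCR (11.11 against a mean of 8.82) and OPALIN (9.79 against 3.56). PMCH stayed low on it (3.67 against 3.45), and somatostatin (SST) was lower (7.93 against 10.53). Without that array the distance of the pineal gland was 0.1278. Control probe sets of actin, GAPDH and EF1A gave 6 pairs of a 3 prime and a 5 prime reading. Their 3 prime minus 5 prime differences on the hypothalamus arrays lay within the range of the other arrays, and hypothalamus ranked between 4 and 13 of the 16 tissues. In a bulk sample, fewer cells of a type and less RNA per cell cannot be told apart.

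Neuropeptide genes were mostly higher in hypothalamus. Of 26 probe sets for 23 hypothalamic neuropeptides, 16 were higher and 4 lower (2 without blood or without the Iberian male array) than in the other 15 tissues, with a median difference of 1.11. PMCH, IAPP, PDYN, ADCYAP1 and HCRT were higher than in each other tissue. IAPP, which encodes amylin, a peptide best known from pancreatic beta cells, had 8.18 and 8.48 log2 units in the Large White male and female and 6.62 and 8.43 in the Iberian male and female. The other arrays lay between 2.36 and 6.57, with the highest value in olfactory bulb. The Iberian male array was low and came within 0.06 of that olfactory bulb array, and the other 3 were clear of all. The mean difference was 5.05 ± 0.29 (33.1-fold, adjusted p = 2.4e-21). ADCYAP1, the precursor of the neuropeptide PACAP, stood at 6.51 and 6.41 in Large White and at 6.07 and 5.51 in Iberian hypothalamus (male and female in each), and differed by 2.89 ± 0.29. Outside the hypothalamus its highest array, at 6.63, was the Large White male's pineal gland.

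**Figure D1:**
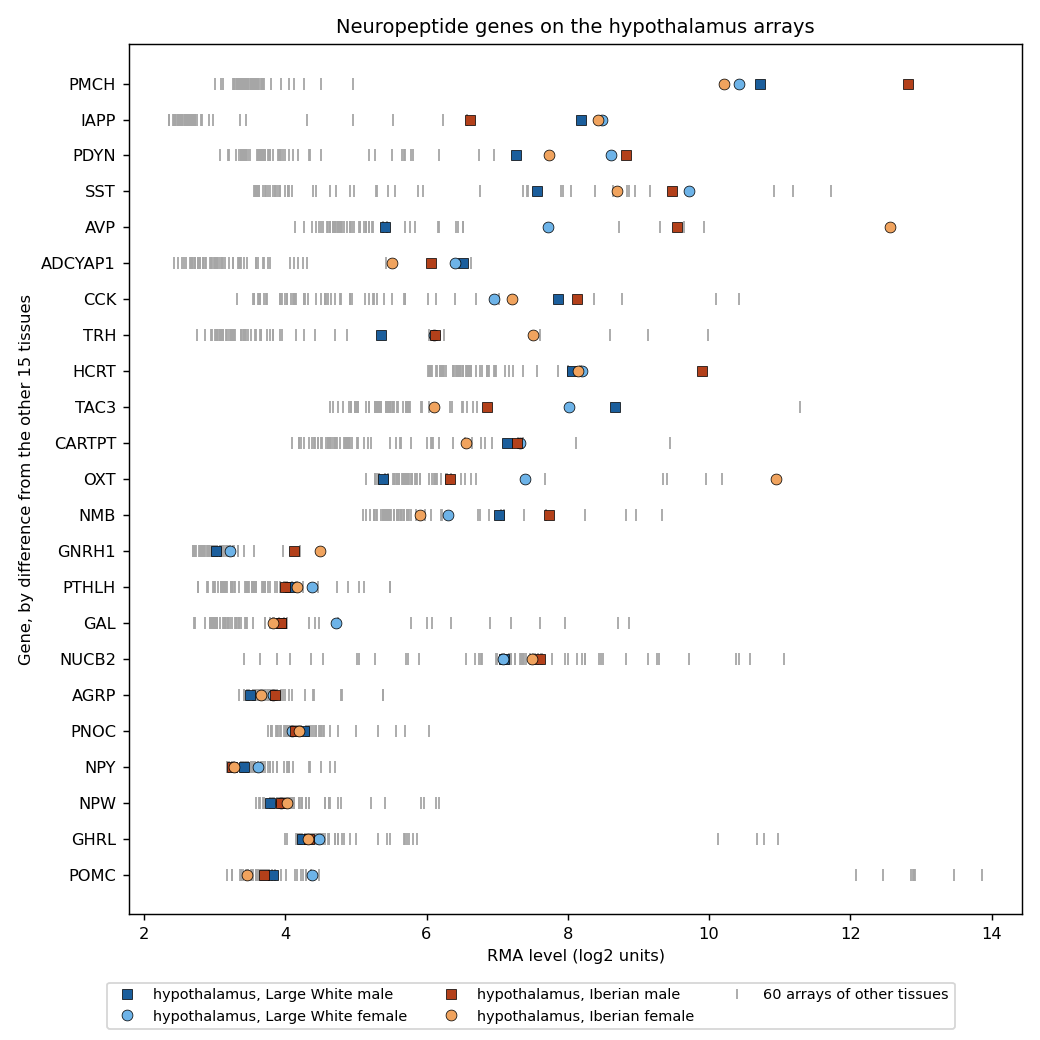
RMA levels (x axis, log2 units) of 23 neuropeptide genes (rows, ordered by their difference from the other 15 tissues) on each hypothalamus array (coloured squares for males and circles for females) and on the 60 arrays of other tissues (grey ticks). PMCH lay at 10.21 to 12.82 in hypothalamus and at most at 4.96 elsewhere, while POMC lay at most at 4.38 in hypothalamus and reached 13.86 in neurohypophysis.

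Other peptide genes were higher in hypothalamus than in most tissues without passing the test against each of them. Somatostatin (SST), which holds back the release of growth hormone, had 7.56, 9.71, 9.47 and 8.69 log2 units in the Large White male and female and the Iberian male and female. Pineal gland averaged 9.88 ± 1.75 and stomach 9.32 ± 1.27, and hypothalamus exceeded 12 of the 15 tissues. Its difference from pineal gland was -1.02 (adjusted p = 0.16), or -1.59 (adjusted p = 0.018) without the Large White male's pineal array. Thyrotropin-releasing hormone (TRH) averaged 6.28 ± 0.90 in hypothalamus and 8.83 ± 1.0 in olfactory bulb. It was lower in hypothalamus than in olfactory bulb by 2.55 log2 units (adjusted p = 5.6e-09) and higher than in the other 14 tissues. Cholecystokinin (CCK), a peptide of gut and brain, followed the same pattern, at 7.54 ± 0.55 in hypothalamus and 9.41 ± 1.0 in olfactory bulb. CARTPT, whose peptide reduces feeding in rodents, averaged 7.08 ± 0.35 in hypothalamus and 7.79 ± 1.27 in olfactory bulb, which did not differ past the threshold (-0.71, adjusted p = 0.36). Neurokinin B (TAC3) stood at 8.67 and 8.02 in the Large White male and female and at 6.86 and 6.10 in the Iberian male and female. Its highest other array, at 11.29, was again that pineal gland, and the difference from pineal gland was 0.45 (adjusted p = 0.64), or 1.86 (adjusted p = 2.2e-07) without it. NMB, the neuromedin B precursor, and PTHLH rose by less than 1 log2 unit, and the call of NMB was lost without the Iberian male array (0.46, adjusted p = 0.051).

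POMC, AGRP and NPY, peptide genes of neurons in the arcuate nucleus, were not raised. POMC, the precursor of melanocortins, was 1.10 log2 units lower than the mean of the other 15 tissues (adjusted p = 2.3e-10). It averaged 3.84 ± 0.39 in hypothalamus, against 13.28 ± 0.47 in neurohypophysis and 12.58 ± 0.39 in adenohypophysis, and hypothalamus exceeded 1 tissue and was below 3. AGRP, the antagonist of the melanocortin receptors, averaged 3.71 ± 0.17 and did not pass the test (-0.10, adjusted p = 0.42), and neither did GAL, NUCB2 or PNOC. NPY had 2 probe sets, and both stayed under 4 on every hypothalamus array. The dimmer of them averaged 3.09 in hypothalamus and 9.53 in olfactory bulb. The call of NPY as lower (-0.26) was lost when the blood arrays or either Iberian hypothalamus array were left out. GHRL, the ghrelin precursor, averaged 4.34 ± 0.10 in hypothalamus and 10.64 ± 0.37 in stomach.

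Among receptors the calcitonin receptor stood out. Of 46 probe sets for 30 genes of peptide and metabolic hormone receptors, 9 were higher and 17 lower, and the median difference of -0.21 was close to that of all named probe sets. Without blood 8 were higher and 9 lower, and without 1 hypothalamus array 6 to 11 were lower, the fewest without the Iberian male. CALCR was 6.53 ± 0.24 log2 units above the other 15 tissues (92.6-fold, adjusted p = 1.3e-28), and its second probe set was 4.04 above them. It was also high in the tissues next to the hypothalamus, at 10.08 ± 0.56 in olfactory bulb, 9.86 ± 0.52 in neurohypophysis, 9.39 ± 1.18 in pineal gland (8.82 ± 0.33 without the Large White male) and 8.83 ± 0.62 in adenohypophysis. In the remaining tissues it averaged 3.19 to 5.39. RAMP1, RAMP2 and RAMP3 encode membrane proteins that turn the calcitonin receptor into an amylin receptor. RAMP1 averaged 8.51 ± 0.24 in hypothalamus and was higher than in 10 tissues and lower than in 2, and its difference from the mean of the other 15 was 1.10 ± 0.21. RAMP2 (0.40 ± 0.15) and RAMP3 (0.37 ± 0.10) rose little, and the call of RAMP2 was lost without blood or without either Iberian array. CALCRL, which pairs with the same proteins to bind CGRP and adrenomedullin, was lower by 0.52 ± 0.13.

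A pair of related pig peptides was higher as well, at a low signal. CRSP3 and CRSP-2, named as calcitonin receptor-stimulating peptides, were looked up after the result for CALCR was seen. CRSP3 had 4.76, 5.89, 5.97 and 5.81 log2 units in the Large White male and female and the Iberian male and female, against 2.78 to 4.81 on the other arrays. CRSP-2 had 5.25, 6.08, 5.74 and 5.50, against 3.19 to 5.24. Both were higher than in each other tissue, by 2.05 ± 0.15 and 1.85 ± 0.15 on average (adjusted p = 6.8e-17 and 1.8e-15). Sequences of the calcitonin family are alike, and how far their probe sets cross-hybridise was not tested.

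MC4R, the melanocortin receptor through which feeding is restrained, was the other receptor above each tissue. It had 3.88 and 4.98 log2 units in the Large White male and female and 4.36 and 3.79 in the Iberian male and female, and no other array exceeded 3.40. All 4 arrays were thus above the other 60, at a low signal (difference 1.73 ± 0.12, adjusted p = 1.7e-18). THRA, a thyroid hormone receptor, was higher than in 14 tissues, at 9.14 ± 0.23, and did not differ past the threshold from olfactory bulb (0.25, adjusted p = 0.53). The mu opioid receptor OPRM1 (1.20 ± 0.27) and the neuropeptide Y receptor NPY1R (1.28 ± 0.26) were higher as well. LEPR, GHSR, MCHR1, HCRTR1 and HCRTR2, the receptors of leptin, ghrelin, melanin-concentrating hormone and hypocretin, differed by -0.14 to 0.14 log2 units and did not pass the test, although second probe sets of HCRTR1 and MCHR1 fell by 0.23 and 0.26. GHR, the growth hormone receptor, was lower by 1.47 ± 0.14, at 4.47 ± 0.11 in hypothalamus against 8.99 ± 0.33 in back fat.

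The histamine gene HDC was prominent in 3 of the 4 animals. It encodes histidine decarboxylase, which makes histamine, and its probe set is unnamed in the platform annotation and was named from the study's own annotation after the values were seen. The levels were 8.58 in the Large White male, 7.40 in the Large White female, 8.98 in the Iberian male and 5.66 in the Iberian female, against 3.53 to 5.58 on the other 60 arrays. HDC was higher than in each other tissue, by 3.48 ± 0.22 on average (11.2-fold, adjusted p = 1.8e-19), although the Iberian female exceeded the highest other array by only 0.07. Of 16 probe sets for 14 other genes of monoamine and histamine synthesis, transport and reception, 4 were higher and 3 lower, or 1 lower without blood or without the Iberian female array. The higher ones were MAOB (1.60 ± 0.21) and MAOA (0.59 ± 0.20), which degrade monoamines, DDC (0.98 ± 0.26), an amine-synthesis enzyme, and the serotonin receptor gene HTR2A (0.51). DDC lost its call without the Iberian male array (0.59, adjusted p = 0.081), and MAOA without blood (0.41, adjusted p = 0.083). SLC6A4, the serotonin transporter, was 3.46 ± 0.11 in hypothalamus and 7.08 ± 2.66 in pineal gland, or 8.40 ± 0.36 there without the Large White male.

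Neuronal genes rose together. All 27 probe sets for 18 genes of the neuronal cytoskeleton and synapse were higher in hypothalamus than in the mean of the other tissues, with a median of 3.68. VSNL1, a neuronal calcium sensor, lay between 12.03 and 12.45 on the hypothalamus arrays and at most at 11.56 elsewhere. STMN2, GAP43 and NEFL, proteins of growing axons and of neurofilaments, were 5.25 to 5.70 log2 units higher than the mean of the other tissues. None of the 27 passed the test against each of the other tissues. Of 12 probe sets for GABA, glycine and glutamate transmission, 9 were higher and 1 lower (median 1.24). GAD1 and GAD2, the enzymes that make GABA, averaged 9.08 ± 0.40 and 9.40 ± 0.22 in hypothalamus, and both were lower there than in olfactory bulb, by 2.97 and 0.89 log2 units. Some probe sets of this kind carry a name only in the study's annotation and were added after their values were seen. Of these the muscarinic receptor CHRM2 lay between 5.61 and 5.71 in hypothalamus and averaged 4.92 ± 0.36 in olfactory bulb, and LGI3, a secreted synaptic protein, lay between 8.23 and 8.53 and averaged 7.01 ± 0.59 there. CHRM2 was higher than in each other tissue (log2 difference 2.84 ± 0.18, SE), and so was LGI3 (3.58 ± 0.17). The probe set that the platform annotation assigns to CHRM2 differed from this, with a mean of 3.01 in hypothalamus and a log2 difference of -0.23 ± 0.12 (limma, adjusted p = 0.091). The AMPA receptor subunit GRIA2 was higher than in 14 tissues (4.43 ± 0.28) and averaged 9.19 ± 0.11, against 10.21 ± 0.05 in olfactory bulb, and the adjusted p between them was 0.071 (limma). Peptide processing followed, with 13 of 22 probe sets higher and 4 lower (median 0.78), or 2 lower when blood, or the hypothalamus array of any 1 animal but the Iberian male, was left out. SCG2, a protein of dense core granules, was 4.33 ± 0.27 and CPE, which trims peptide precursors, 3.65 ± 0.18 above the other tissues, whereas CHGA fell by 0.37. Among 17 probe sets for hypothalamic transcription factors 4 were higher and 6 lower. ARNT2, needed for the magnocellular neurons in mice, averaged 10.21 ± 0.26 (difference 3.80 ± 0.21), and MEIS2 averaged 5.54 ± 0.54, against 11.18 ± 0.39 in olfactory bulb. For voltage-gated channels the counts were 5 higher and 2 lower of 13, and CLCN5, a chloride transporter, lay at 4.85 to 5.49 in hypothalamus and at most at 4.69 elsewhere. Neural adhesion genes had 16 of 20 probe sets higher and 1 lower (median 1.62).

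**Figure D2:**
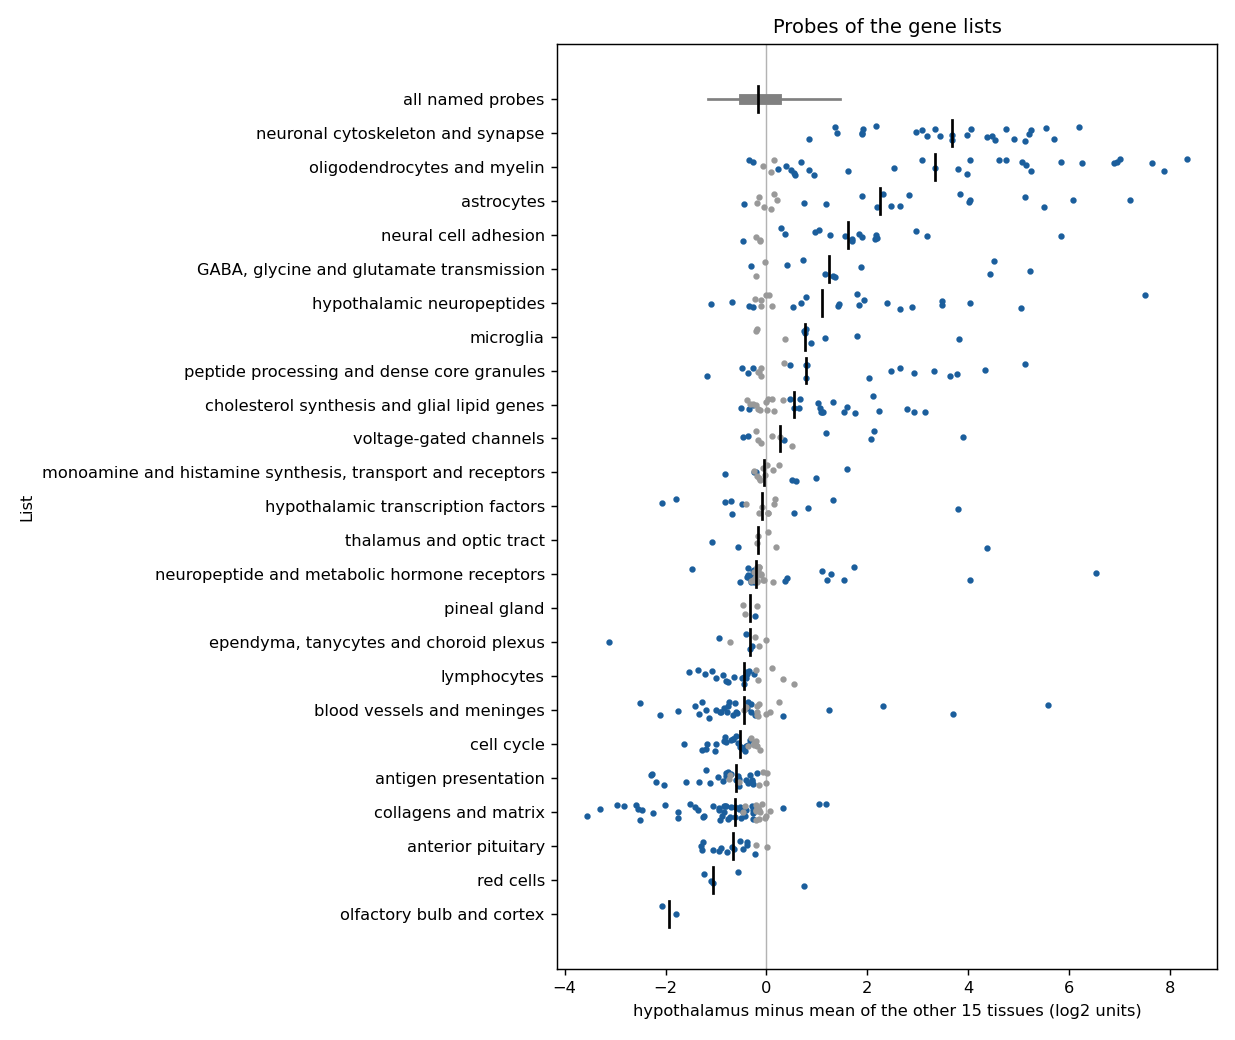
Difference of hypothalamus from the mean of the other 15 tissues (x axis, log2 units) for each probe set of 24 gene lists (rows), in blue where it passed the test and in grey where it did not, with black bars for the medians. The grey box on top spans the middle 50% and its line the middle 90% of all named probe sets. The neuronal and oligodendrocyte lists had medians of 3.68 and 3.35, against -0.17 over all named probe sets.

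Oligodendrocytes, which wrap axons in myelin, gave differences as large as that of PMCH. Of 33 probe sets for 21 oligodendrocyte and myelin genes, 28 were higher and 2 lower, with a median of 3.35, and 9 were higher than in each other tissue. OPALIN, a membrane protein of oligodendrocytes, had 11.13, 10.64, 10.59 and 10.77 log2 units in the Large White male and female and the Iberian male and female. No array outside the hypothalamus exceeded 9.79, the level of the Large White male's pineal gland. By mean the next tissue was olfactory bulb (8.82). OLIG1, OMG, ERMN, MAG and SEPT4 were also higher than in each other tissue, with differences from the other 15 tissues of 3.80 to 6.26 and olfactory bulb as the next tissue. For OLIG1 the Iberian female array, at 8.65, lay below the highest other array. PLLP, a myelin proteolipid, averaged 9.78 ± 0.15 in hypothalamus and 8.86 ± 0.18 in stomach, its next tissue. MBP and MOBP, the myelin basic proteins, averaged 13.16 ± 0.12 and 12.08 ± 0.13 in hypothalamus and did not differ past the threshold from olfactory bulb (0.21 and 0.48). SOX10, a factor of the same lineage, averaged only 4.70 and was called lower (-0.34).

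Astrocyte genes were higher in 15 of 22 probe sets and lower in 1 (median 2.25). GFAP, the intermediate filament of astrocytes, stood at 13.19 and 12.79 in the Large White male and female and at 12.34 and 13.19 in the Iberian male and female. Pineal gland followed at 12.23 ± 0.87, from which hypothalamus differed by 0.65 (adjusted p = 0.13), or by 1.0 (adjusted p = 0.012) without the Large White male's pineal array. Olfactory bulb was lower than hypothalamus by 1.04 log2 units (adjusted p = 0.02). FABP7, a lipid-binding protein of radial glia, was lower in hypothalamus than in olfactory bulb by 1.82 log2 units and higher than in the mean of all others by 5.51 ± 0.13. Microglia, the resident macrophages of the brain, showed 7 of 10 probe sets higher and none lower (median 0.78). P2RY12, a purine receptor that marks resting microglia, had 9.23 and 9.52 in Large White and 9.83 and 9.38 in Iberian hypothalamus (male and female in each), against at most 8.67 elsewhere. It was higher than in each other tissue by 1.58 log2 units or more, while AIF1 and C1QC, which macrophages share, did not exceed ileum. For 9 of the 10 microglial probe sets the Iberian male had the highest hypothalamus value, against 2518 of all 9815 named probe sets. Without that array 6 of the 10 were higher. Ependyma, tanycytes and choroid plexus, which line the third ventricle, had no probe set higher and 5 of 9 lower. TTR, the choroid plexus carrier of thyroid hormone, was 4.53 on average and did not pass the test.

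**Figure D3:**
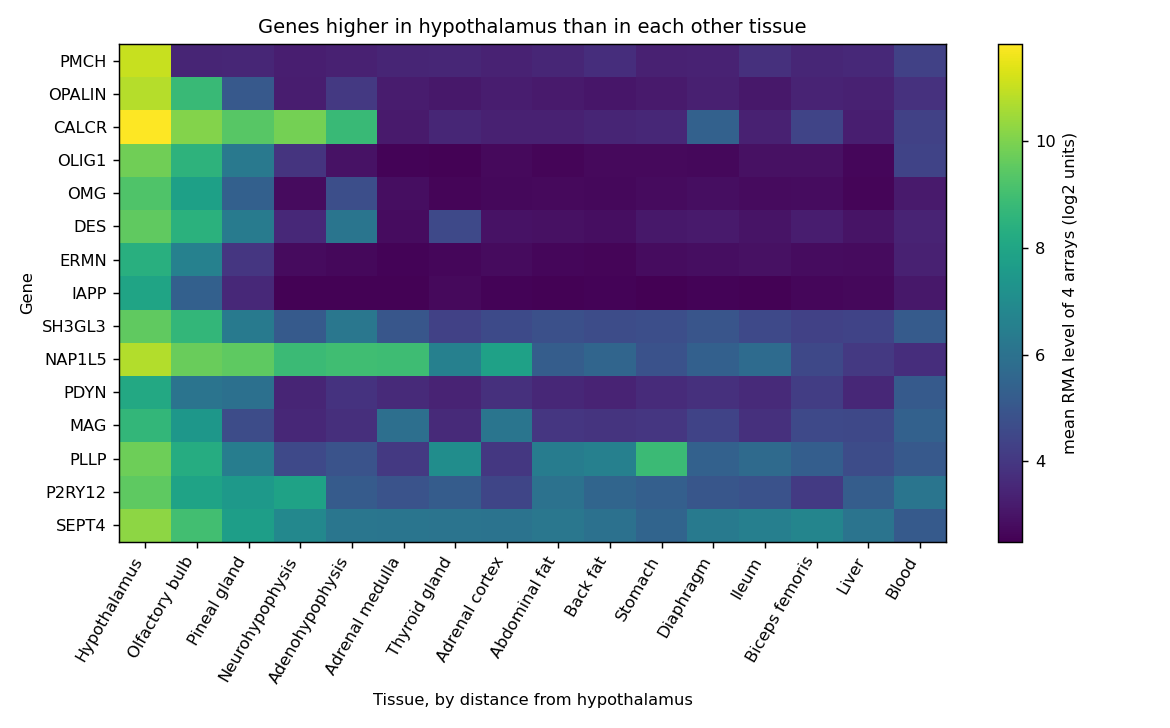
Mean RMA level of 4 arrays (colour scale, log2 units) of the 15 genes with the largest difference from the other tissues among those higher in hypothalamus than in each other tissue (rows), in all 16 tissues (columns, ordered by distance from hypothalamus). CALCR spread to olfactory bulb (10.08), neurohypophysis (9.86), pineal gland (9.39) and adenohypophysis (8.83), while PMCH stayed at or under 4.32 in every other tissue.

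The 91 probe sets higher than in each other tissue had differences from the mean of the other 15 tissues of 0.54 to 7.51, with a median of 1.93. For 44 of them olfactory bulb was the next highest tissue, for 16 pineal gland and for 9 blood. BDNF, a growth factor of neurons (1.69), and IL34, a cytokine that maintains microglia (1.76), were members picked here for their known roles. Of the genes named here, HCRT, BDNF, DES, HMGCS1, MAG, OLIG1 and PLLP exceeded 14 tissues when some 1 hypothalamus array was left out (for MAG and PLLP, any of the 4). On 48 of the 91, all 4 hypothalamus arrays were also above the other 60. By that second criterion, which uses no test, 67 named probe sets (0.683%) were highest on all hypothalamus arrays and 7 (0.0713%) lowest. The gap to the nearest other array was over 0.5 log2 units for 6 of the 67, among them PMCH (5.25), OPALIN (0.80) and P2RY12 (0.56). Without the Large White male's pineal array, 114 were highest on all hypothalamus arrays. The probe set that the platform assigns to DES, a muscle filament, rose by 5.59 ± 0.22, and the study's own annotation assigns it to the neurofilament gene NEFH. A second DES probe set was lower by 1.28. The probe set assigned to NAP1L5 (4.11 ± 0.21) carries another name in that annotation, HERC3. The platform's names are kept here.

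Genes of cholesterol synthesis and glial lipid handling were higher in 18 of 33 probe sets and lower in 3 (median 0.54). HMGCS1, an early enzyme of sterol synthesis, stood between 10.96 and 11.29 on the hypothalamus arrays and was higher than in each other tissue, by 3.14 ± 0.22 on average. Its next tissue was olfactory bulb (10.14 ± 0.59), and the Large White male's pineal array reached 11.03. MSMO1 and SQLE, later steps of the same pathway, were 2.24 ± 0.18 and 2.11 higher than the mean of the other tissues, with liver above hypothalamus in both. APOE, which carries lipids between glia and neurons, was 2.93 ± 0.19 higher, at 12.44 ± 0.08 against 13.16 ± 0.11 in liver.

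The lists of matrix, vessel, antigen presentation, lymphocyte and cell cycle genes held more lower than higher probe sets. Collagens and matrix had 42 of 59 probe sets lower and 3 higher, with a median of -0.63. COL15A1, a collagen of basement membranes, averaged 4.66 ± 0.23 in hypothalamus and 10.84 ± 0.26 in back fat, and COL6A3 4.84 ± 0.61 in hypothalamus and 11.92 ± 0.24 in abdominal fat. POSTN, which organises collagen, had 7.0 in the Iberian male and 3.46 to 4.47 in the other 3 hypothalami (difference -2.96 ± 0.45). The higher ones were probe sets of TIMP2 (1.19), SPARC (1.04) and COL3A1 (0.32). Vessel and meningeal genes had 24 of 39 lower and 5 higher. PECAM1, an endothelial adhesion protein, fell by 2.11, while SLC2A1 (2.31 ± 0.17) and CLDN5 (1.24), the glucose transporter and a tight junction protein of the blood-brain barrier, and PTGDS (3.71 ± 0.29), a prostaglandin synthase of the meninges and oligodendrocytes, were higher. The DES probe set above counts among the 5, and the last was COL3A1. The largest fall was that of C4BPA, a complement regulator, at -4.05 ± 0.25 (4.42 ± 0.35 in hypothalamus against 12.10 ± 0.34 in abdominal fat). The proteases PRSS23 (-3.83 ± 0.20) and CTSH (-3.43 ± 0.17), the growth brake BTG2 (-3.14 ± 0.35), the water channel AQP1 (-3.12 ± 0.22) and the epithelial genes KRT8 (-2.92 ± 0.28) and EPCAM (-2.89 ± 0.25) were also among the largest falls. CTSH stood at 6.26 in the Iberian male and at 4.46 to 4.69 in the other hypothalami.

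Antigen presentation was low on 3 of the 4 hypothalamus arrays. None of 33 probe sets was higher and 26 were lower (median -0.61). SLA-DRA, a chain of a class II histocompatibility molecule, had 6.10 and 6.07 log2 units in the Large White male and female and 10.11 and 7.04 in the Iberian male and female. The other arrays lay between 6.35 and 11.84. Lymphocyte genes were lower in 17 of 22 probe sets and higher in none, and red cell genes lower in 4 of 5, or in 2 of 5 without blood. ALAS2, the first enzyme of haem synthesis in red cells, averaged 5.86 ± 0.06 in hypothalamus and 13.88 ± 0.03 in blood, and without blood its call was lost (-0.56, adjusted p = 0.1). Genes of the cell cycle were lower in 22 of 30 and higher in none (median -0.51). CCNB1, a cyclin of mitosis, averaged 3.92 ± 0.59 in hypothalamus and 9.79 ± 0.36 in ileum. TYMS, which makes the thymidine nucleotide of DNA, lay between 4.31 and 4.93 in hypothalamus and was lower than in each other tissue (-0.84 ± 0.11). CTDSPL, a phosphatase, lay at 4.67 to 5.09, below all 60 other arrays (5.25 to 8.16).

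Markers of neighbouring structures were looked at as a check on the dissection. The 16 probe sets for anterior pituitary genes included none that was higher and 14 that were lower than the mean of the other tissues. That mean includes adenohypophysis and neurohypophysis, where the list averaged 9.04 and 5.82, so these counts cannot test the dissection. Against olfactory bulb none of the 16 was called higher or lower (median -0.15), and the same held against pineal gland (median -0.23). The GH1 probe set is assigned to CSH1 in the study's annotation. GH1, PRL, CGA and LHB averaged 3.47 to 5.58 in hypothalamus, against 13.32 to 13.91 in adenohypophysis, although PRL was 4.59 in the Iberian male and 3.21 to 3.40 in the other 3. In 4 pineal probe sets none was higher than the mean of the other tissues, which includes the pineal gland itself (list mean 5.8). Against olfactory bulb alone, none of these 4 was called higher or lower (median -0.07). In 7 probe sets of the thalamus and optic tract 1 was higher, CALB2 (4.38 ± 0.36), a calcium-binding protein also found in many other neurons. For 2 probe sets of olfactory bulb and cortex, both of MEIS2, the hypothalamus was lower than a mean that includes olfactory bulb (list mean 9.89). Against pineal gland neither was called higher or lower (median -0.04).

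Against the olfactory bulb, the closest tissue, 840 named probe sets (8.56%) were higher and 412 (4.20%) lower in hypothalamus. PMCH (7.60 log2 units), AVP (4.13), ETNPPL (3.15) and AQP3 (3.08) had the largest differences upward. ETNPPL, an astrocytic enzyme of phospholipid metabolism, averaged 8.21 ± 0.17 in hypothalamus and 5.06 ± 0.78 in olfactory bulb. MEIS2 (-5.65), TIAM2 (-4.34), C3H2orf40 (-4.18) and SCGN (-4.05) had the largest downward, and SCGN encodes secretagogin, a calcium sensor of interneurons. Of the lists, 12 of 26 neuropeptide probe sets were higher and 6 lower than in olfactory bulb, 15 of 33 oligodendrocyte ones were higher and none lower, and 9 of 10 microglial ones were higher and none lower. Neuronal genes had none of 27 higher and 4 lower.

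Against the pineal gland, 1397 (14.2%) were higher and 1074 (10.9%) lower, or 1704 and 1386 without the Large White male pineal array. PMCH (7.54), OPALIN (5.66), MOBP (5.61) and TF (5.22) were highest relative to it. The largest opposite differences were those of TNNC2 (-5.47), NEUROD1 (-5.04), DUOX2 (-4.83) and PTX3 (-4.08). NEUROD1, a transcription factor of pinealocytes and neurons, averaged 3.42 ± 0.12 in hypothalamus and 8.46 ± 1.57 in pineal gland. Without the Large White male's pineal array the differences were 7.60 for PMCH, 7.25 for OPALIN, 7.27 for MOBP and 6.74 for TF, and -7.28 for TNNC2, -5.83 for NEUROD1, -6.47 for DUOX2 and -4.88 for PTX3. The pineal arrays were uneven in these genes, from 3.53 to 12.70 for TNNC2, a troponin of fast muscle, and from 3.06 to 9.90 for DUOX2, an oxidase known from the thyroid.

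Against the neurohypophysis, where hypothalamic axons end, 1608 (16.4%) were higher and 1871 (19.1%) lower. MOBP (7.92), PMCH (7.76), OPALIN (7.52) and TF (7.0) were the genes most in excess in hypothalamus. POMC (-9.44), CGA (-7.94), PRL (-6.92) and EPCAM (-6.70), the hormones and epithelial marker of the glandular lobe, were lowest relative to it. CGA averaged 3.47 ± 0.11 in hypothalamus and 11.41 ± 0.49 in neurohypophysis, so that transcripts of the glandular pituitary were present in the neurohypophysis samples. These 3 comparisons share the hypothalamus arrays.

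The peptide genes of the magnocellular neurons varied widely among the 4 animals. AVP, the vasopressin precursor, had 5.41 and 7.72 log2 units in the Large White male and female, against 9.54 and 12.56 in the Iberian male and female. The Large White male lay below the mean of blood (6.48 ± 0.05), and the Iberian female was above every other array. In neurohypophysis the same animals ranged only from 8.72 to 9.93. The difference of hypothalamus from the other tissues was 4.47 ± 0.26 log2 units lower in Large White than in Iberian pigs (adjusted p = 8.7e-18) and 2.54 ± 0.26 lower in males than in females (adjusted p = 4.7e-09). With 1 hypothalamus array left out, the breed difference was -4.82 to -4.11 and the sex difference -2.90 to -2.19. Such a fit matches the remaining hypothalamus arrays exactly, so it cannot show whether the calls hold across animals. OXT, the oxytocin precursor, had 5.38 and 7.39 in the Large White male and female and 6.33 and 10.95 in the Iberian male and female, with 9.35 to 10.18 in neurohypophysis. Its difference was 2.09 ± 0.31 lower in Large White than in Iberian pigs (adjusted p = 1.5e-04) and 3.36 ± 0.31 lower in males than in females (adjusted p = 2.0e-10). Without either the Large White female or the Iberian female the breed difference was -0.79 and not called, and without the Iberian female OXT was not called higher in hypothalamus at all (0.32, adjusted p = 0.15, against 1.43 ± 0.32 over the 4 animals).

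**Figure D4:**
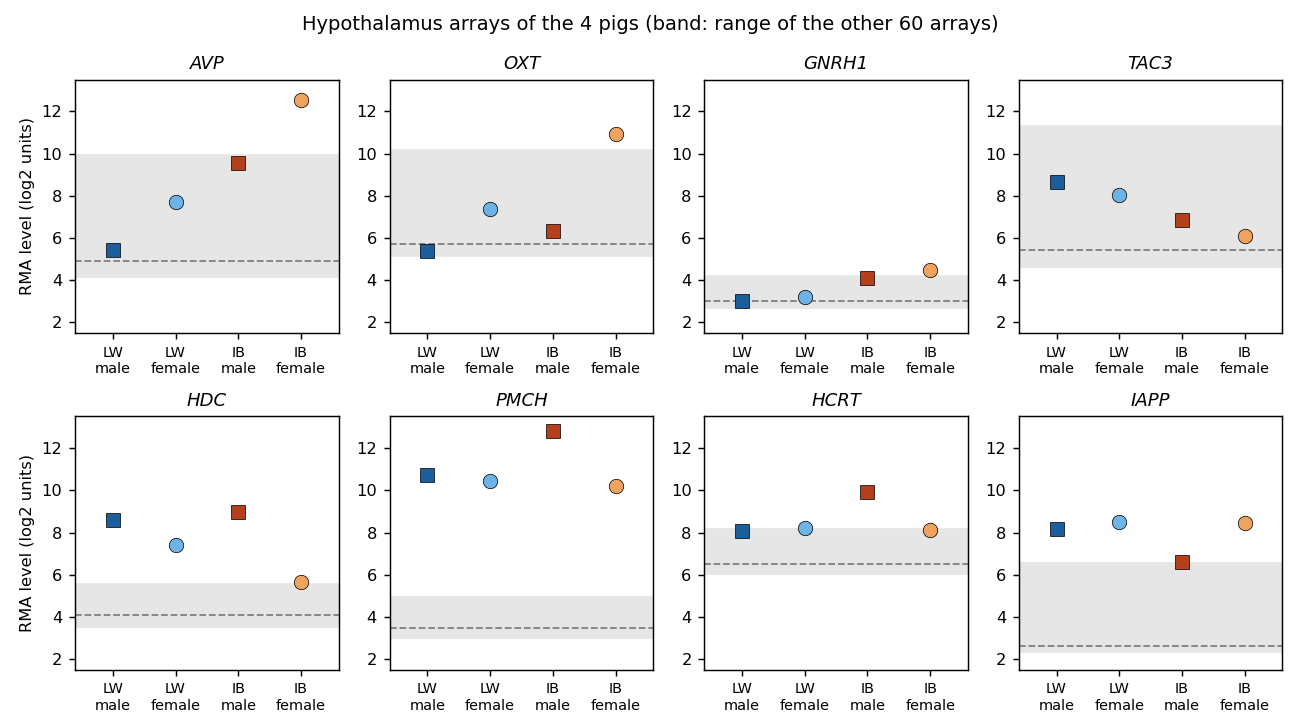
RMA levels (y axis, log2 units) of 8 genes in the hypothalamus of the 4 pigs (x axis, LW for Large White and IB for Iberian, squares for males and circles for females), with the range (grey band) and median (dashed line) of the 60 arrays of other tissues. AVP spread between 5.41 (Large White male) and 12.56 (Iberian female), and HDC between 5.66 (Iberian female) and 8.98 (Iberian male).

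In all, 4 named probe sets (0.0408%) had a hypothalamic difference that depended on breed and 4 (0.0408%) one that depended on sex. Those for breed were AVP, OXT, GNRH1 and a probe set of HPSE, all lower in Large White. The HPSE probe set is 1 of several for this heparan-cleaving enzyme and averaged 4.01, against 6.46 for the brightest. It had 3.33 and 3.26 in the Large White male and female and 5.03 and 4.40 in the Iberian male and female. The brightest HPSE probe set was not called (-1.42, adjusted p = 1). GNRH1, the gonadotropin-releasing hormone precursor, had 3.02 and 3.22 in the Large White male and female and 4.13 and 4.49 in the Iberian male and female. The signal was low, with a mean of 3.72 in hypothalamus and 3.67 in blood. The breed difference was -1.16 ± 0.21 (adjusted p = 0.0056), or -1.08 with an adjusted p of 0.16 without either the Large White female or the Iberian female. TAC3, whose neurons drive those of GNRH1, lay the other way round, at 8.67 and 8.02 in Large White and 6.86 and 6.10 in Iberian pigs, and was not called (1.76, adjusted p = 1). A second TAC3 probe set kept the same order of animals, at 6.02 and 5.24 in Large White and 4.48 and 3.34 in Iberian hypothalamus (male and female in each). For sex the named probe sets were AVP, OXT, PMCH and TNNT1. PMCH was 1.45 ± 0.30 higher in males than in females (limma, adjusted p = 0.037). That rested on the Iberian pair, since leaving out either Iberian animal gave 0.29. TNNT1, a troponin of slow muscle (-1.54 ± 0.32, adjusted p = 0.037) lost its call without any 1 of the 4 arrays, at -1.66 or -1.43. HDC had 8.58 and 8.98 in males and 7.40 and 5.66 in females, a difference of 2.25 ± 0.29 (adjusted p = 3.0e-06), or 1.17 with an adjusted p of 0.19 without either Iberian animal. Breed and sex were each compared over 2 animals against 2, for which an exact permutation test cannot give a p under 0.333, and the model borrows its spread from the other tissues. With 1 hypothalamus array left out, the interaction fit matches the remaining ones exactly. Calls kept or lost there do not measure the spread between animals. The plane of dissection, which moves with the nuclei that a piece contains, was not measured and cannot be told apart from the animal.

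The hypothalamus of the Iberian male carried an excess of interferon and immune transcripts. Of the named probe sets, 192 were over 1 log2 unit above the mean of the other 3 animals on that array, against 21 to 61 on each of the others. Over 1 unit below lay 26 on that array and 136 on the array of the Large White female. CXCL9, an interferon-gamma-induced chemokine, had 9.96 in the Iberian male and 3.67 to 4.70 in the other hypothalami, and RSAD2, an interferon-induced antiviral enzyme, 8.85 and 4.95 to 5.51. ISG15, a ubiquitin-like protein induced by interferon, had 10.48 against 7.17 to 7.71, and CD74, the class II chaperone, 9.31 against 5.09 to 6.18. These genes were picked for their values on this array. The same animal was the highest of 4 in 16 of 16 tissues for ISG15, in 15 for RSAD2, 11 for CXCL9, 12 for SLA-DRB1, 10 for CD74 and 9 for SLA-DRA. For all 6 genes its lead over the next animal was largest in hypothalamus, at 2.77 to 5.25 log2 units. Since the genes were picked on the hypothalamus array, their choice favours this ranking, which cannot show a tissue pattern by itself. Over the antigen presentation list the mean level was 8.03 on this array and 6.72 to 6.98 on the other hypothalamus arrays, against 7.0 to 8.93 in the other tissues. Without it 24 of the 33 probe sets were lower and CXCL9 was called lower in hypothalamus (-1.78, adjusted p = 0.0014). Of the 22 lymphocyte probe sets 14 were highest on this array, against 2518 of all 9815 named probe sets. Their median excess over the mean of the other hypothalami was 0.18. CD3E and CCL5 were picked from them for their size, with CD3E at 5.72 against 3.53 to 4.29 and CCL5 at 6.83 against 5.09 to 5.50. Red cell genes had no such excess, since AHSP was 4.03 against 3.84 to 4.31 and HBM, which the study's annotation calls HBA1, 5.37 against 5.40 to 5.76. What part health, dissection or RNA had in this array was not tested.

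**Figure D5:**
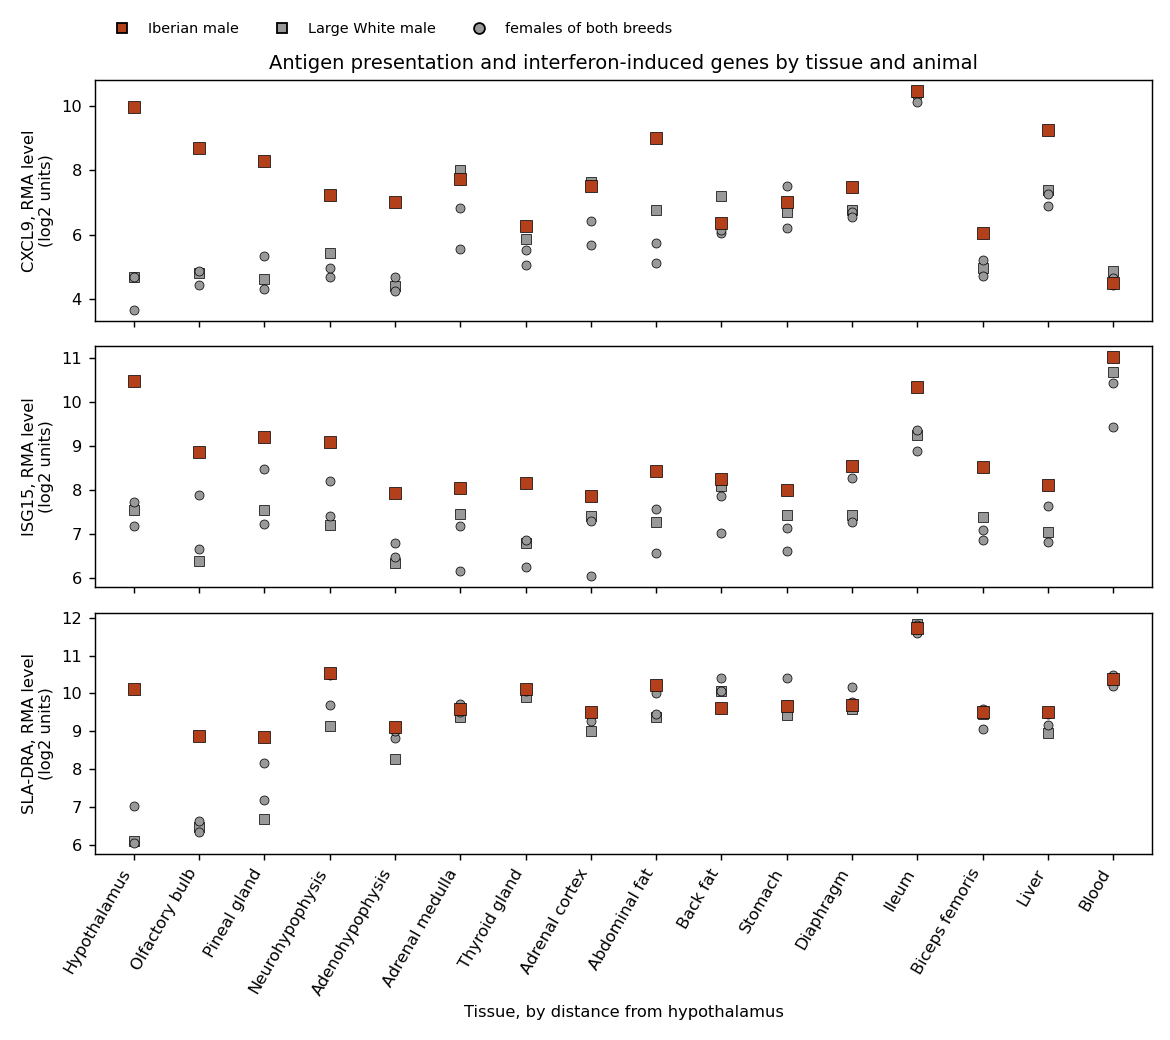
RMA levels (y axes, log2 units) of CXCL9, ISG15 and SLA-DRA in 16 tissues (x axis, ordered by distance from hypothalamus) of the Iberian male (red squares), the Large White male (grey squares) and the females of both breeds (grey circles). In hypothalamus the Iberian male had 9.96, 10.48 and 10.11, and its lead over the next animal was larger there than in any other tissue. The genes were picked for their values on that hypothalamus array, which favours such a lead.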

How the data were processed

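Total RNA of 16 tissues from 4 pigs was hybridised to 64 Affymetrix porcine arrays. The deposited log2 values, which run from 1.78 to 14.47, were made by the authors with the GCOS scanner software and RMA (background correction, quantile normalization and summarisation of all arrays together), and were used as deposited. RMA compresses low levels, quantile normalization forces equal distributions on unlike tissues, and saturation and background could not be judged from these values.

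Of 24123 probe sets, 188 controls were left out and 23935 tested. The platform annotation gave 1 symbol to 10110 of them, several to 157 and none to 13668. Symbols other than LOC numbers were kept, which left 9815 probe sets of 6592 genes. A linear model with tissue, breed and sex was fitted with limma 3.58.1 in R 4.3.3 (lmFit and eBayes), and hypothalamus was set against the mean of the other 15 tissue means, against each tissue, and by breed and sex through interaction terms. P-values were adjusted by the Benjamini-Hochberg method over all probe sets, with a threshold of 0.05. Tables and figures were made with Python 3.11.15, numpy 2.4.6, pandas 2.3.3 and matplotlib 3.10.9. The fit was tested on simulated data of 23935 probe sets: it recovered 62%, 96%, 100% and 100% of shifts of 0.5, 1, 2 and 4 log2 units in the comparison with the other 15 tissues and called 0.0892% of unshifted ones. By breed it recovered 55% of shifts of 1 and 93% of shifts of 2. The simulated noise was independent between arrays, with the same spread in every tissue, and few probe sets were shifted. These rates therefore need not hold for the real arrays.

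The breed and sex labels mark the same 4 animals in every tissue. A hypothalamus array and the other arrays of the same animal deviated together from their tissue means (mean correlation 0.229 over 60 pairs, 52 of them over 0.1). For different animals the mean was -0.076 over 180 pairs (6 over 0.1). Deviations from a mean of 4 arrays cancel within a tissue, so this negative mean follows from the first value and is no separate result.

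The arrays and the gene lists were chosen with earlier results of these data known. Named were the 4 markers, all neuropeptides and receptors of the lists, the 15 genes with the largest positive difference among those higher than in each other tissue, the 10 with the largest negative difference, the 4 largest of each other list, the 4 largest each way against olfactory bulb, pineal gland and neurohypophysis, and the 4 largest of each interaction. Other genes were named after their values were seen, as were those whose probe sets take their name from the study's annotation. Alternatives covered animal as a block, other tissues as 1 group, arrays left out, renormalization, a floor of 6 log2 units, the natural logarithm that the methods apply after RMA, a variance trend and 1 probe set a gene.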

Additional observations from a re-analysis of the deposited data

Results flagged for a closer look

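Among the 4 hypothalamus arrays, 21 of the genes described had 1 array far from the other 3, by the ratio of its gap to the range of the group. Chance alone flags about 1 gene in 20 by this criterion, and over all 6592 genes 6.55% were so flagged. Over all genes the Large White female was apart for 2.78% and the Iberian male for 1.93%. Among the genes described, some of them picked for their values on its array, the Iberian male was the array apart for 10 of the 21, with high values for HCRT (9.90 log2 units), CTSH (6.26), PRL (4.59), SLA-DRB1 (9.49), CXCL9 (9.96), RSAD2 (8.85) and ISG15 (10.48), and low values for IAPP (6.62), CRHR1 (4.87) and MAOA (9.22). In the Large White female GAL (4.72), ESR2 (3.47), RORA (4.70) and PTX3 (4.28) were high and ARNT2 (9.83) was low. The Large White male was high in PRLR (3.47) and low in KCNIP1 (6.09) and CRSP3 (4.76). In the Iberian female HBB (8.33) was high, and OLIG1 (8.65) and PRSS23 (3.45) were low.

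The difference of hypothalamus from the other tissues varied with breed, by the interaction term, for AVP (-4.47 log2 units, Large White minus Iberian), OXT (-2.09) and GNRH1 (-1.16). It varied with sex for AVP (-2.54, male minus female), OXT (-3.36), PMCH (1.45), TNNT1 (-1.54) and HDC (2.25). Each rests on 2 animals against 2.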

How the results depend on the processing

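Of 164 genes followed through the alternatives, none changed sign as a called gene under any alternative. The call of 78 changed under at least 1, mostly with the 60 other arrays taken as 1 group, which counts the spread between tissues as error, and of 27 under others. That setting left 629 named probe sets higher and 308 lower. With animal as a replicate block no call of these genes changed, and among the counts only that of probe sets lower than in each tissue moved by over 1.5 times, to 4. That count of 2 was also 4 with a variance trend, 4 with a floor of 6 log2 units, 7 with a second quantile normalization, 7 on the natural logarithm, 8 without blood (chosen after seeing the data), 9 without the Large White male's pineal array, and 1 to 5 without 1 hypothalamus array. On the natural logarithm 51 probe sets were higher than in each tissue and 2 depended on sex. The count by breed was 2 with the floor, 13 without that pineal array, and 13 to 25 without 1 hypothalamus array, and the count by sex was 10 to 11 without 1 hypothalamus array. Probe sets with all hypothalamus arrays highest numbered 6, and lowest 0, where a gap over 0.5 log2 units was asked, 114 were highest without the pineal array, and 11 to 14 were lowest without 1 hypothalamus array, for which fewer arrays have to lie apart. Within the gene lists, leaving out 1 hypothalamus array or blood moved only counts of 4 or fewer by over 1.5 times, apart from the lower receptor probe sets. For the other moved values the cause was not tested. Leaving out 1 hypothalamus array gave 1867 to 1941 higher and 3315 to 3384 lower than the other 15 tissues, and 63 to 79 higher than each. With 4 arrays a tissue, and 1 animal for each breed and sex, the number of arrays limits the precision.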

Other observations

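Among probe sets without a name here, the largest sex difference of hypothalamus was 3.35 ± 0.25 (adjusted p = 7.6e-14), with 7.09 and 7.48 in the Large White and Iberian males and 4.34 and 3.46 in the Large White and Iberian females. Another had 4.31 and 4.20 in the Large White male and female and 8.58 and 5.71 in the Iberian male and female, a breed difference of -2.92 ± 0.30 (adjusted p = 4.0e-09).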
